A study of Mus musculus with 8 samples.

Results

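The 41 genes described here copy DNA in S phase, the part of the cell cycle in which the genome is duplicated. They were taken by gene symbol, without copies of the same name, from the 42391 gene entries of the raw counts. The rule uses symbols and no threshold on measured values, but the set was proposed with earlier results of these data known. They comprise the MCM2-7 helicase, origin licensing and helicase activation factors, the sliding clamp and its loader, DNA polymerases and primase, proteins that finish Okazaki fragments, enzymes of nucleotide supply, proteins that copy chromatin, and a pair of repair genes.

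Before S phase, ORC, CDC6 and CDT1 load the ring-shaped MCM2-7 complex onto origins. CDC45 and GINS then turn it into the active helicase, and polymerases held by the PCNA clamp copy both strands. Most of these genes are classical targets of E2F transcription factors and are high in cycling cells, and myoblasts stop copying DNA when they leave the cell cycle to form myotubes.

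Polyadenylated RNA of mouse muscle cells was sequenced in 8 samples, with 2 replicates for each of 4 groups. C2C12 cells, a mouse myoblast line, received 50 nM of a non-targeting siRNA (control) or a Septin9 siRNA (Septin9-deficient) and were lysed 60 h later, after 12 h in differentiation medium. Primary myoblasts, isolated from the hindlimbs of mice 5 weeks old, received the same siRNAs and were lysed 48 h later while in proliferation medium. The sources used here do not say how many mice or isolations gave the primary myoblasts, and p-values measure the spread between these samples. C2C12 cells are 1 line, and cell type, medium and time after transfection changed together and cannot be told apart. The study lists 1 Septin9 siRNA sequence, so other effects of this sequence and the loss of Septin9 cannot be told apart either. Between 20898611 and 27223414 reads were counted on genes per sample. Values are in CPM, a gene's share of the counted reads of its sample after TMM scaling within each cell type, unless stated otherwise.

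Septin9, the targeted gene, read 430 and 441 CPM in the C2C12 controls and 152 and 189 CPM after Septin9 siRNA, and 365 and 459 against 199 and 157 CPM in primary myoblasts. It was lower in each Septin9-deficient sample than in both controls of its cell type. The myoblast marker Myod1 lay between 68.4 and 143 CPM in C2C12 samples and between 667 and 835 CPM in primary myoblast samples. Fibroblast markers differed between replicates of the primary myoblasts, with Pdgfra at 1.00 and 0.857 CPM in the control and Septin9-deficient samples of replicate 1 and at 30.8 and 31.7 CPM in those of replicate 2. Of the 5 fibroblast markers, 2 were at 0 in both replicate 1 samples, and the summed level ran from 335 to 567 CPM in the controls and from 302 to 611 CPM in the Septin9-deficient samples of primary myoblasts. In C2C12 cells the same 5 fibroblast markers summed to 2378 and 2998 CPM in the controls and to 2680 and 2923 CPM after Septin9 siRNA. The markers of endothelial, immune and Schwann cells together summed to 7.11 to 11.3 CPM per sample.

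In the controls the replication genes spanned a wide range of levels. To compare genes with each other, CPM scaled over the controls of both cell types together was divided by the length of the exons in kilobases. On this scale Rrm2, the regulated subunit of ribonucleotide reductase, and Pcna, the sliding clamp, were the 2 highest in both cell types, by either length used. Rrm2 had a level of 84.4 and 34.0 CPM per kilobase in the C2C12 controls and 164 and 138 in the primary myoblast controls. Pcna stood at 76.7 and 38.2 CPM per kilobase in the C2C12 controls and at 67.3 and 71.5 in the primary myoblast controls. Brca2, a repair gene, was lowest in both. The median level of the 41 genes was 7.66 CPM per kilobase in C2C12 controls and 7.71 in primary myoblast controls, beside 5.30 and 5.18 over all genes with a length. When the genes were ordered by level, neighbours did not overlap between their replicates in 12 of 40 pairs in primary myoblasts and in 1 of 40 pairs in C2C12 cells, so most neighbours could not be ordered beyond their spread.

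The spread of RNA levels among subunits that act in equal number in a complex varied with the complex and the gene length used. Within MCM2-7 the highest subunit exceeded the lowest by 2.53 to 3.71 times in the 4 controls. Which subunit was lowest or highest depended on the gene length used: per kilobase of the exon union Mcm2 was lowest in each control, and per kilobase of the longest transcript Mcm3 (C2C12 cells) or Mcm5 (primary myoblasts) was lowest and Mcm7 highest, with ratios of 1.64 to 2.30. Within the GINS complex, which joins CDC45 on the helicase, the ratio was 4.62 to 7.38, or 4.40 to 6.86 per longest transcript, with Gins4 highest in each control by both lengths. For Chaf1a and Chaf1b, the large and middle subunits of the histone chaperone CAF-1, it was 1.15 to 1.70 with Chaf1a higher, whereas per longest transcript Chaf1b was higher in replicate 1 of both cell types and the ratio was 1.01 to 1.26. Among Pola1, Pola2, Prim1 and Prim2 the ratio was 1.85 to 2.66, or 1.12 to 1.74 per longest transcript. For Rfc2 to Rfc5 it was 1.54 to 2.95, or 1.49 to 3.14. For Rrm1 and Rrm2 it was 2.71 to 6.88, or 1.70 to 4.32. The length used moved the rank of 36 of the 41 members in C2C12 controls and of 34 in primary myoblast controls. The plot of control levels per kilobase shows this order.

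**Figure D1:**
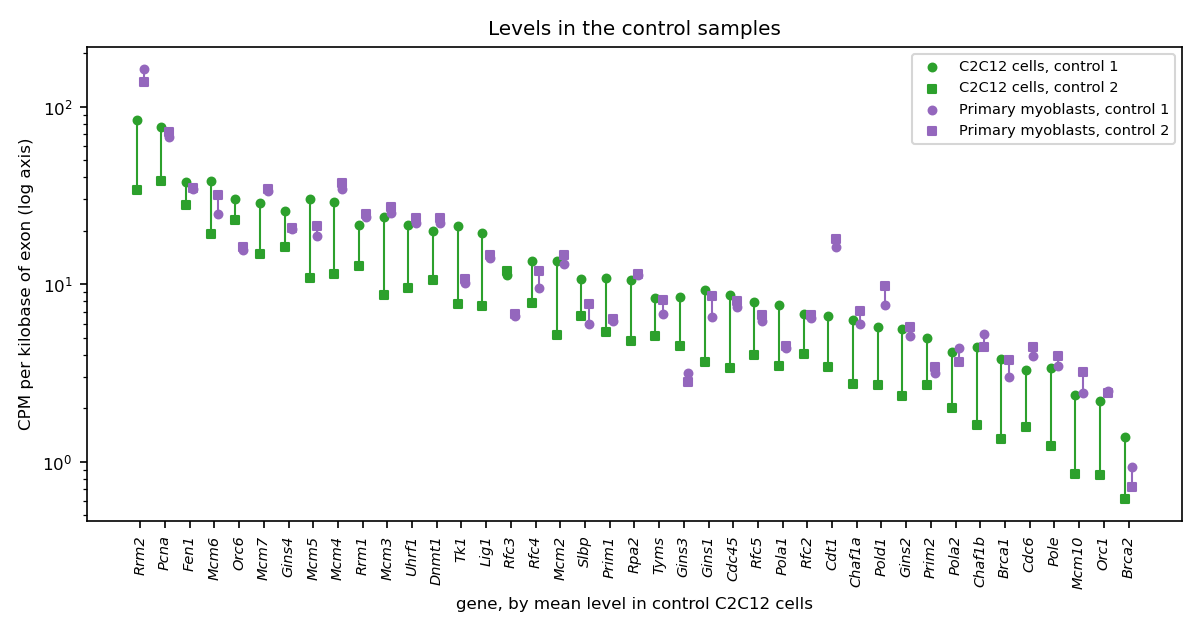
Levels of the 41 genes in the 4 control samples, as CPM per kilobase of exon on a log axis, with circles for replicate 1, squares for replicate 2 and a line joining them. Lines are long in C2C12 cells, where control replicate 1 lies above control replicate 2 for 40 of 41 genes, and short in primary myoblasts.

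RefSeq promoter windows (250 bases before to 50 after a transcription start, GRCm38.p6) were found for 34 of the 41 genes. They were searched on both strands for 4 octamers that match the E2F consensus, TTTCCCGC, TTTCGCGC, TTTGCCGC and TTTGGCGC. At least 1 octamer was present for 15 of 34 genes (44.1%), beside 2.6% of 27025 genes with a window and 4.23% of the 12871 genes that were tested in either cell type. The genes were Mcm3, Mcm5, Mcm6, Mcm7, Orc1, Cdc6, Cdt1, Gins3, Rfc3, Pola1, Pold1, Lig1, Uhrf1, Dnmt1 and Brca2. Among genes with a window, the share was 25% of 40 other replication genes, 42.9% of 14 E2F factors and pocket proteins, and 2.94% of 34 genes of G2 and M phase. A gene with more than 1 window was counted where any of its windows held an octamer.

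The windows below show octamers that lie before the transcription start used for the window, in helicase, licensing, GINS and chromatin copying genes. Each is written on the strand of the gene, with the octamer in capitals.

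Mcm5, chr8:75109340-75109387, plus strand: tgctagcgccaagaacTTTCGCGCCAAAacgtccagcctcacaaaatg

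Mcm6, chr1:128359725-128359772, minus strand: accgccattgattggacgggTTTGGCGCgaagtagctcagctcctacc

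Orc1, chr4:108579407-108579454, plus strand: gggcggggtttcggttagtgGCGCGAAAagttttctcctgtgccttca

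Cdc6, chr11:98907993-98908040, plus strand: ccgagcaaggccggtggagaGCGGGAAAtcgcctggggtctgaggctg

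Gins3, chr8:95633498-95633545, plus strand: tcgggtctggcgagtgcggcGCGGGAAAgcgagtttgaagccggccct

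Uhrf1, chr17:56304108-56304155, plus strand: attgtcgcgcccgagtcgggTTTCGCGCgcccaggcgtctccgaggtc

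In Mcm5 the capitals hold overlapping octamers of both strands, TTTCGCGC on the gene's strand and TTTGGCGC on the other. In Orc1, Cdc6 and Gins3 the octamer reads on the opposite strand and appears as its reverse complement. Uhrf1 has 2 windows, and the one not shown held no octamer. The octamers shown for Orc1, Cdc6 and Uhrf1 lie within the annotated gene, after its outermost start. No octamer was found in the windows of Chaf1a and Chaf1b. An octamer is a match of letters and was not tested as a binding site.

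The difference seen in most of these genes in C2C12 cells lay between the replicates. All 41 genes had a lower fitted value in replicate 2 than in replicate 1, and 40 passed the test at an adjusted p under 0.05 (edgeR quasi-likelihood test), beside 18.3% of 15814 genes called lower and 17.4% called higher. In these 40 genes both replicate 2 samples lay under both replicate 1 samples. Replicate number was assumed to mark the experiment, so the test compares single experiments. Its p-values measure the spread within them and not that between experiments. The median log2 difference was -1.04, against 0.01 over all genes, and the values ran from -1.51 in Mcm5 to -0.07 in Rfc3. The summed level of the 41 genes was 2947 and 1404 CPM in control replicates 1 and 2 and 2836 and 1458 CPM in the Septin9-deficient ones.

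Helicase genes were among those that differed most. Mcm5 read 126 and 44.2 CPM in the 2 controls and 119 and 42.1 CPM after Septin9 siRNA. Its fitted log2 difference between replicates was -1.51 ± 0.07 (SE, adjusted p = 6.37e-11, edgeR). Tk1, the salvage enzyme thymidine kinase 1, read 116 and 40.8 CPM in the controls and 98.8 and 35.7 CPM after Septin9 siRNA. Each gene was high in both samples of replicate 1 and low in both of replicate 2. Cdc45 gave a log2 difference of -1.44 ± 0.09 (adjusted p = 7.95e-10, edgeR). A near-identical copy of Cdc45 is listed beside it with nearly the same counts, so the level of Cdc45 is uncertain. Changes were smaller in Orc6, an ORC subunit, at -0.50 ± 0.07 (adjusted p = 1.46e-05, edgeR), and in Fen1, the flap endonuclease of Okazaki fragments, at -0.58 ± 0.07 (adjusted p = 3.86e-06, edgeR).

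Rfc3, a subunit of the clamp loader, was the exception. It read 42.9 and 43.4 CPM in the controls and 51.0 and 45.6 CPM after Septin9 siRNA, with a difference between replicates of -0.07 ± 0.07 (adjusted p = 0.477, edgeR). Its partners Rfc2, Rfc4 and Rfc5 fell between 0.75 and 1.04 on the log2 scale. The Rfc3 window holds 2 octamers, and the median difference between replicates was -1.04 both in the 15 genes with an octamer and in the 19 without.

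Markers of committed myocytes moved the other way between the C2C12 replicates. All 5 were called higher in replicate 2 (median log2 difference 1.90), beside 17.4% of all genes. Myogenin (Myog) read 5.45 and 38.1 CPM in the controls and 16.4 and 65.2 CPM after Septin9 siRNA. The summed level of the 5 markers was 96.1 and 157 CPM in the controls and 125 and 210 CPM after Septin9 siRNA. Their part in the level of the replication genes was not tested.

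**Figure D2:**
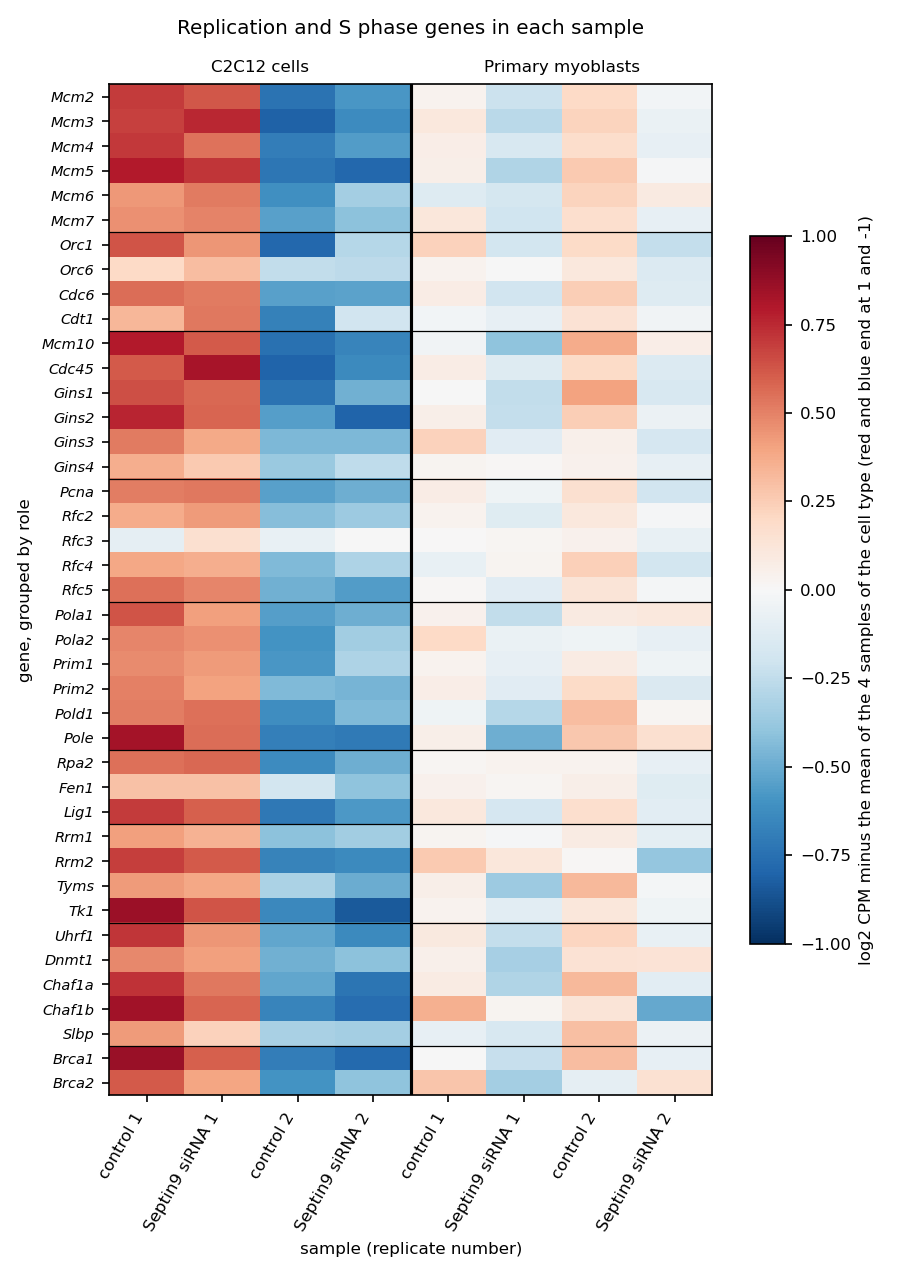
Level of each of the 41 genes in each sample, as log2 CPM minus the mean of the 4 samples of that cell type (red above, blue below the mean), with lines between roles. C2C12 columns split by replicate, whereas in primary myoblasts both Septin9-deficient columns are mostly blue.

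In C2C12 cells the replication genes did not differ between Septin9-deficient and control samples beyond the test. None of the 41 was called (edgeR, adjusted p from 0.07 to 1.00), beside 4.12% of genes called lower, 2.64% called higher and 1.57% called with a 1.5-fold change. At an unadjusted p under 0.05 there were 7 of 41, beside 18.7% of all genes, and DESeq2 with the same block called 0. The median log2 fold change was -0.003, with 22 genes below 0 beside 50.2% of all genes, and values from -0.21 in Tk1 to 0.33 in Cdt1. Both replicate pairs were lower for 13 genes, beside 31.4% of all genes, and both were higher for 10. No gene had both Septin9-deficient samples under both controls, which 12.7% of all genes had. For 40 of the 41 genes this was fixed in advance, because both replicate 2 samples lay under both replicate 1 samples.

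The pairs differed in direction. The median log2 ratio of Septin9 siRNA over control was -0.07 in pair 1, with 29 genes lower, and 0.06 in pair 2, with 15 lower. Cdt1, which brings MCM2-7 to the origin, had the lowest adjusted p of the 41. It read 21.9 and 10.9 CPM in the controls and 25.0 and 15.2 CPM after Septin9 siRNA, higher in both pairs, with a log2 fold change of 0.33 ± 0.10 (adjusted p = 0.0697, edgeR). Tk1 followed at -0.21 ± 0.07 (adjusted p = 0.082, edgeR). The 5 genes for chromatin copying and histone mRNA (Uhrf1, Dnmt1, Chaf1a, Chaf1b, Slbp) all had fitted values below 0, with a median of -0.19 and none called.

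In primary myoblasts all 41 genes had a fitted log2 fold change below 0 after Septin9 siRNA, beside 48.3% of 17117 genes. The changes were small, with a median of -0.24 (0.01 over all genes) and a range from -0.48 to -0.05. Only 2 passed the test, both lower, beside 1.04% of genes called lower and 3.95% called higher (edgeR, adjusted p under 0.05). Neither changed 1.5-fold, which 3.17% of genes did. At an unadjusted p under 0.05 there were 20 of 41, beside 16.7% of all genes. The Septin9-deficient sample was lower in both pairs for 36 genes, beside 29.2% of all genes, and both Septin9-deficient samples lay under both controls for 29, beside 14.8%. In bulk RNA, fewer cells in S phase and less of each RNA per cell cannot be told apart.

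The genes that passed encode 2 subunits of CAF-1, the chaperone that places new histones behind the fork. Chaf1a (GRCm38.p6, chr17:56040416-56068026) read 51.0 and 60.1 CPM in the controls and 39.1 and 44.7 CPM after Septin9 siRNA. Chaf1b (chr16:93883900-93906115) read 23.5 and 20.1 CPM in the controls and 18.7 and 12.9 CPM after Septin9 siRNA. For both genes the groups did not overlap. The log2 fold change of Chaf1a was -0.40 ± 0.11 (adjusted p = 0.036, edgeR), and that of Chaf1b was -0.48 ± 0.13 (adjusted p = 0.0405, edgeR). These calls rest on the processing: neither gene was called with RLE size factors, with library size alone, without the replicate block or by DESeq2 with the block.

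The helicase subunits Mcm2 to Mcm7 were lower in both pairs in 6 of 6 cases (median log2 fold change -0.26), with none called. Mcm3 read 90.9 and 98.2 CPM in the controls and 70.0 and 80.6 CPM after Septin9 siRNA, and its log2 fold change was -0.33 ± 0.11 (adjusted p = 0.0911, edgeR). Only Mcm6 had overlapping groups, at 112 and 143 CPM in the controls and 108 and 131 CPM after Septin9 siRNA. The 4 licensing genes were lower in both pairs with groups apart, and Orc1, the largest ORC subunit, had the most negative value of them. Orc1 read 8.43 and 8.23 CPM in the controls and 6.34 and 6.09 CPM after Septin9 siRNA, with a log2 fold change of -0.42 ± 0.18 (adjusted p = 0.216, edgeR). Helicase activation genes were lower in both pairs in 6 of 6 cases (median -0.29), among them Gins1 at -0.41 ± 0.16 (adjusted p = 0.195, edgeR).

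Among genes of the fork itself the median was -0.14 for Pcna and the clamp loader genes, of which 3 of 5 were lower in both pairs, and -0.21 for polymerases and primase, of which 5 of 6 were. Pole, the leading strand polymerase, differed between pairs, at 37.1 and 42.8 CPM in the controls and 25.3 and 39.8 CPM after Septin9 siRNA. The single-strand binding and Okazaki genes Rpa2, Fen1 and Lig1 had a median of -0.10, and Rpa2 read 32.6 and 33.0 CPM in the controls and 33.0 and 30.4 CPM after Septin9 siRNA. Brca2 went opposite ways in the pairs, from 12.2 to 7.97 CPM in pair 1 and from 9.45 to 11.2 CPM in pair 2.

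All 4 nucleotide supply genes were lower in both pairs. Tyms, thymidylate synthase, read 40.1 and 48.2 CPM in the controls and 29.9 and 38.0 CPM after Septin9 siRNA. Its groups did not overlap, and the log2 fold change was -0.38 ± 0.11 (adjusted p = 0.0565, edgeR). Rrm2 read 438 and 368 CPM in the controls and 394 and 279 CPM after Septin9 siRNA, and the groups overlapped. Uhrf1, which guides the maintenance methylase Dnmt1 to copied DNA, read 90.2 and 97.7 CPM in the controls and 71.6 and 80.0 CPM after Septin9 siRNA (adjusted p = 0.114, edgeR).

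On the batch-corrected counts, DESeq2 called 6 of the 41 genes lower, namely Mcm3, Mcm5, Mcm7, Tyms, Uhrf1 and Chaf1a, beside 884 of 17083 genes (5.17%) called in either direction. Without replicate 1 of the primary myoblasts 11 members and 2020 of 18131 genes (11.1%) were called, and without replicate 2 there were 8 and 1277 of 18316 (6.97%), in a fit of the remaining samples of both cell types that shares 1 estimate of the spread. The count of calls therefore ranged from 0 to 11, while 38 to 41 fitted values stayed below 0 in every alternative run. Genes with and without an octamer had medians of -0.27 and -0.22 in primary myoblasts and 0.01 and -0.02 in C2C12 cells.

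**Figure D3:**
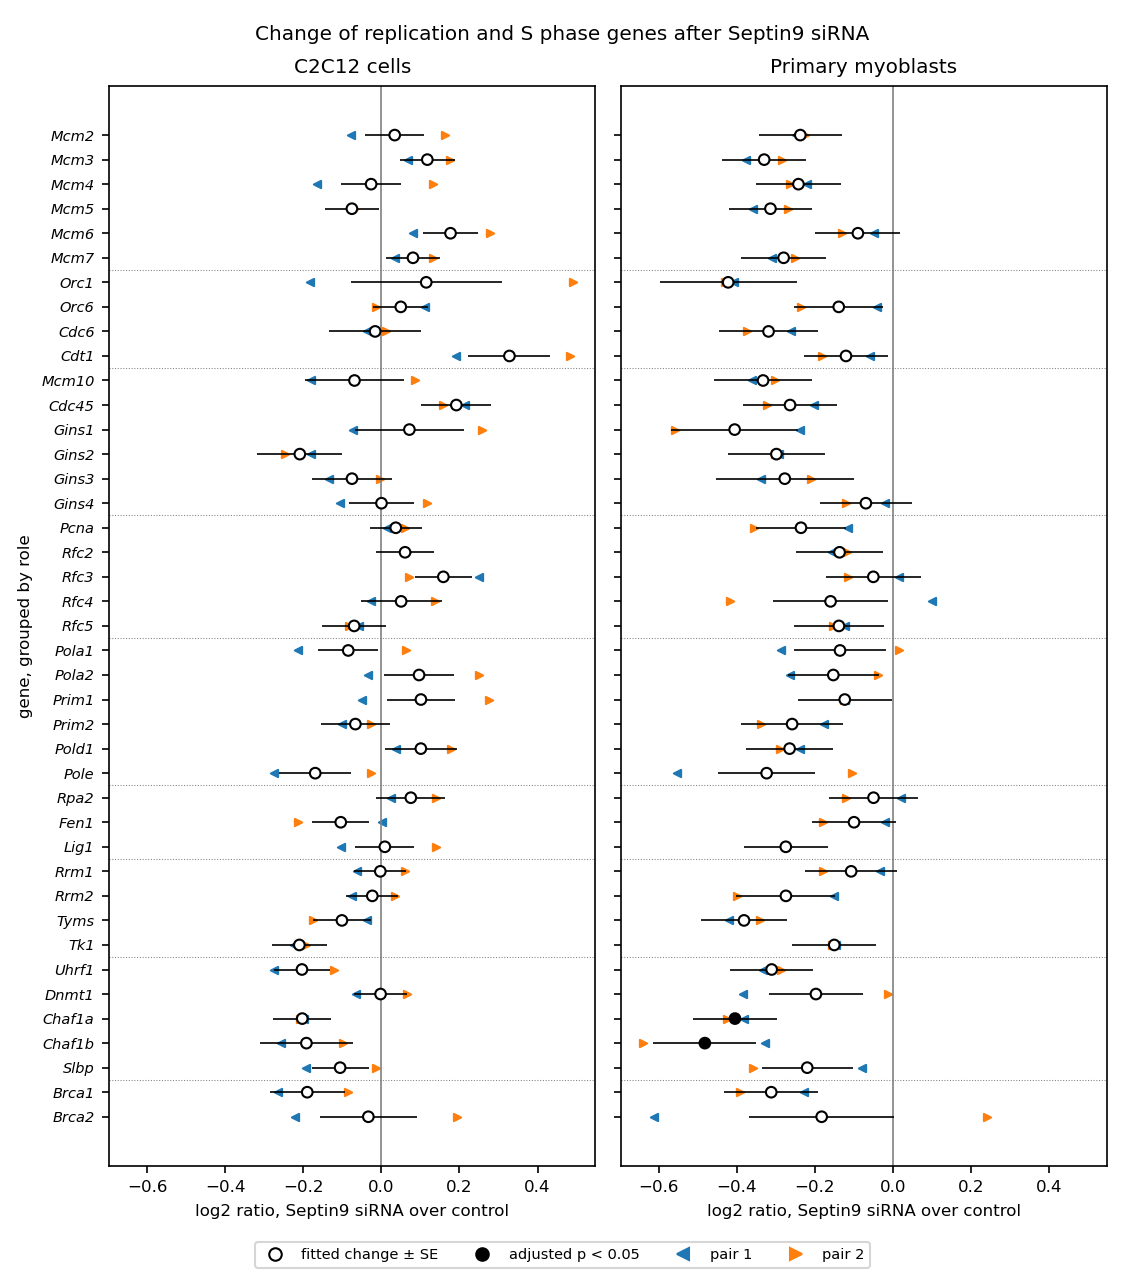
Fitted log2 fold change of each gene after Septin9 siRNA (circles with SE, filled where the adjusted p is under 0.05) and the log2 ratio in each replicate pair (triangles), in both cell types. Circles lie on both sides of 0 in C2C12 cells and below 0 for all 41 genes in primary myoblasts, where Chaf1a and Chaf1b are filled.

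The change after Septin9 siRNA was set against cell type in a fit of all 8 samples. The fitted difference, primary myoblasts minus C2C12 cells, was below 0 in 40 of 41 genes, beside 51.2% of 17918 genes, with a median of -0.22. No member was called, and neither was any other gene (0%, edgeR). At an unadjusted p under 0.05 there were 10 members and 1469 genes in all (8.20%), and DESeq2 called 15 genes, none of them a member. Mcm3 had the lowest adjusted p, with a difference of -0.46 ± 0.11 (adjusted p = 0.329, edgeR), and Orc1 the most negative value, -0.55 ± 0.26. Tk1 was the gene above 0, at 0.05 ± 0.11. Without replicate 1 of the primary myoblasts 5 members (Mcm3, Cdt1, Cdc45, Pcna and Rrm2) and 844 genes in all were called, and without their replicate 2 Mcm3 and 253 genes in all were.

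The replicates of primary myoblasts differed less in these genes than those of C2C12 cells. In replicate 2, Mcm6, Mcm10, Pold1 and Pole were called higher and Rrm2 and Chaf1b lower (edgeR), beside 12.5% of genes called higher and 11.9% called lower. The median log2 difference was 0.09. Mcm10, which helps to open the origin, read 18.02 and 23.9 CPM in the controls and 14.01 and 19.4 CPM after Septin9 siRNA, with a difference between replicates of 0.43 ± 0.13 (adjusted p = 0.0162, edgeR). Chaf1b was lower by 0.37 ± 0.13 on the log2 scale (adjusted p = 0.0465, edgeR). DESeq2 called none of the 41. Here too the p-values do not measure the spread between experiments. The summed level was 2636 and 2760 CPM in the controls and 2307 and 2334 CPM after Septin9 siRNA, so that both Septin9-deficient sums lay under both control sums. The fibroblast markers described above and the committed myocyte markers (all 5 lower in replicate 2, median -1.43) differed between the same replicates, and their part was not tested.

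**Figure D4:**
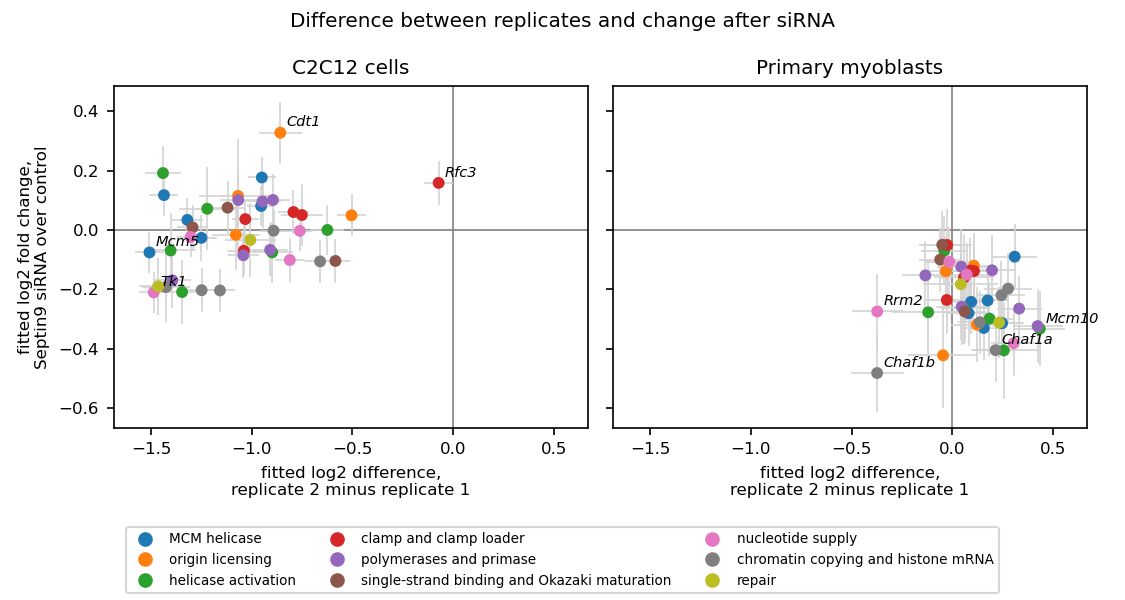
Fitted log2 fold change after Septin9 siRNA against the fitted log2 difference between replicate 2 and replicate 1, with SE bars and 1 point per gene coloured by role. In C2C12 cells the points spread along the replicate axis from -1.51 to -0.07 and lie around 0 on the siRNA axis, and in primary myoblasts they lie below 0 on the siRNA axis and on both sides of 0 on the replicate axis.

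Between the cell types, 3 of the 41 genes differed in the controls (edgeR). Cdt1 was lower in C2C12 cells, with 21.9 and 10.9 CPM against 48.7 and 54.7 CPM, a log2 difference of -1.77 ± 0.35 (adjusted p = 0.0206, edgeR). Orc6 was higher, with 78.2 and 57.6 CPM against 37.2 and 38.9 CPM, at 0.74 ± 0.18 (adjusted p = 0.036, edgeR). Rfc3 was higher as well, with 42.9 and 43.4 CPM against 23.0 and 23.6 CPM, at 0.79 ± 0.14 (adjusted p = 0.0168, edgeR). The groups of these genes did not overlap. These CPM were scaled within each cell type, whereas the log2 differences come from a scaling of the 4 controls together. The CPM therefore do not give exactly the fitted differences. The call of Orc6 was lost with the replicate block (adjusted p = 0.0686, edgeR) and without any 1 of the 4 controls, that of Rfc3 without either C2C12 control or without primary myoblast control replicate 1, and that of Cdt1 without C2C12 control replicate 2. Of all genes, 18.3% were called lower and 16.2% higher in C2C12 cells. Gins3 at 1.11 ± 0.35 (adjusted p = 0.0665, edgeR) and Rrm2 at -1.35 ± 0.45 (adjusted p = 0.0741, edgeR) missed the threshold.

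The median difference over the 41 genes was -0.35, and it turned on the C2C12 replicates. It was -0.97 without C2C12 control replicate 1 and 0.13 without C2C12 control replicate 2. The direction of the median thus changed with the replicate left out.

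Other genes of the same processes were read beside the 41. Of 51 further replication genes, 3 were called lower and 1 higher in C2C12 cells (median -0.04), and 3 lower and 1 higher in primary myoblasts (median -0.19). Over all genes, 4.12% were called lower and 2.64% higher in C2C12 cells, and 1.04% lower and 3.95% higher in primary myoblasts. Pole3, a small polymerase epsilon subunit, fell in both, by 0.70 ± 0.09 in C2C12 cells (adjusted p = 0.000103, edgeR) and by 0.50 ± 0.13 in primary myoblasts (adjusted p = 0.0309, edgeR), on the log2 scale. Dck, the deoxycytidine kinase of nucleotide salvage, also fell in both, by 0.34 and 0.51. Other polymerase genes had higher values. Pold4 read 50.0 and 52.3 CPM in the C2C12 controls and 56.8 and 54.9 CPM after Septin9 siRNA. In primary myoblasts Pold4 read 22.15 and 27.2 CPM in the controls and 32.4 and 34.4 CPM after Septin9 siRNA. Pole4 was higher in both pairs of both cell types, at 120.4% of the control mean in C2C12 cells and 118.5% in primary myoblasts. Of 18 E2F factors, partners and pocket proteins, 2 were called lower and 2 higher in C2C12 cells and 3 lower and 1 higher in primary myoblasts.

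Tfdp1, the DP1 partner with which E2F proteins bind DNA, fell in both cell types. It read 196 and 126 CPM in the C2C12 controls and 86.4 and 68.3 CPM after Septin9 siRNA, and 167 and 179 against 82.5 and 62.9 CPM in primary myoblasts. The log2 fold change was -1.03 ± 0.08 in C2C12 cells (adjusted p = 2.15e-07, edgeR) and -1.26 ± 0.13 in primary myoblasts (adjusted p = 2.54e-05, edgeR). E2f7, a repressor of the family, fell by 0.37 and 0.57, and E2f2, an activator, rose by 0.49 and 0.53 on the log2 scale. The relation of Tfdp1 to the replication genes was not tested.

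Genes of G2 and M phase, the stages after S phase, had negative values in both cell types. All 40 had fitted values below 0 in C2C12 cells (median -0.30) and in primary myoblasts (median -0.33). Of these, 27 were called lower in C2C12 cells, beside 4.12% of all genes, and 6 in primary myoblasts, beside 1.04%. In C2C12 cells Mki67, which coats mitotic chromosomes, fell by 0.50 ± 0.07 (adjusted p = 0.000167, edgeR) and Ccnb1, the mitotic cyclin B1, by 0.41 ± 0.07 (adjusted p = 0.000669, edgeR). The 27 calls in C2C12 cells became 0 in the fit of all 8 samples, without the replicate block and without either replicate, and 6 with DESeq2. Between the C2C12 replicates these 40 genes moved with the replication genes (median -0.90, 40 called lower, beside 18.3% of all genes). In replicate 2 of the primary myoblasts, by contrast, 31 were called higher, beside 12.5% of all genes.

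Among 18 regulators of G1 phase and cell cycle exit, Cdkn1a, the CDK inhibitor p21, rose by 0.38 ± 0.07 in C2C12 cells (adjusted p = 0.00319, edgeR) and by 0.53 ± 0.15 in primary myoblasts (adjusted p = 0.0391, edgeR). In all, 3 of 16 tested were called higher in C2C12 cells, and 3 of 18 were called higher and 1 lower in primary myoblasts. Over all genes, 2.64% were called higher in C2C12 cells, and 3.95% higher and 1.04% lower in primary myoblasts. All 5 committed myocyte markers had fitted values above 0 in both cell types. Of these, 3 were called higher in C2C12 cells and 5 in primary myoblasts. Their summed level in primary myoblasts was 7230 and 1974 CPM in the controls and 9885 and 5622 CPM after Septin9 siRNA, and its part in the change of the replication genes was not tested.

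**Figure D5:**
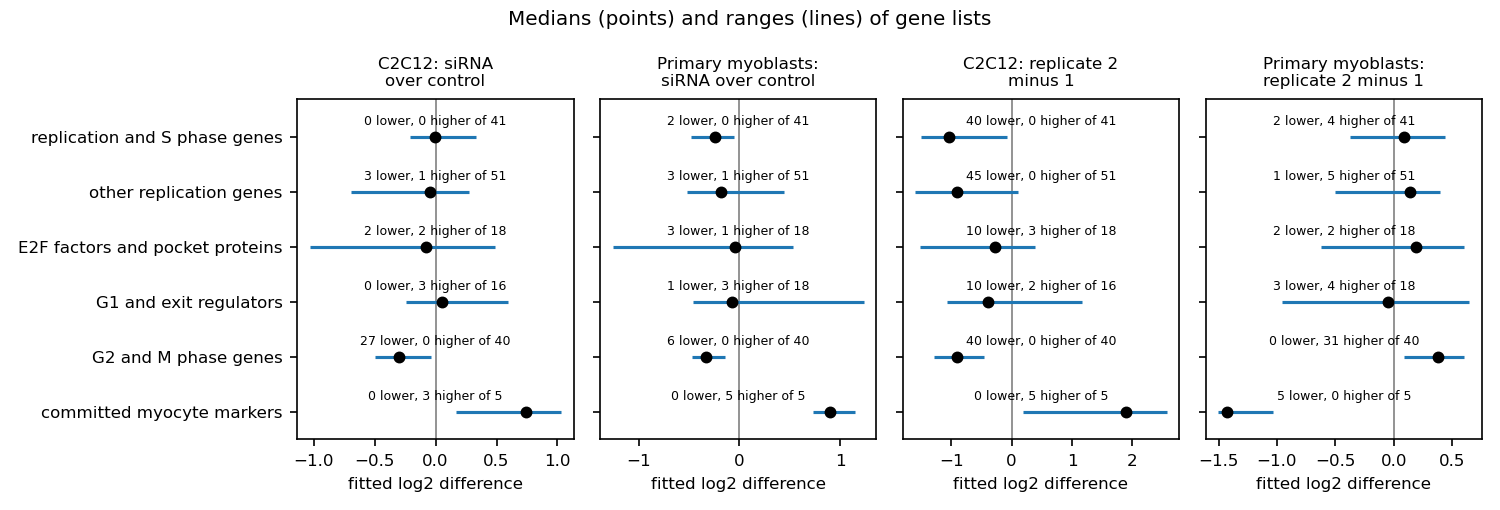
Median (point) and range (line) of the fitted log2 difference in each gene list, for Septin9 siRNA over control and for replicate 2 minus replicate 1 in each cell type, with the number of genes called lower and higher. The replication and S phase genes have medians of -0.003 and -0.24 after Septin9 siRNA, and the G2 and M phase genes -0.30 and -0.33, each in C2C12 cells and primary myoblasts.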

How the data were processed

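Alignment to GRCm38.p6 was by STAR 2.7.2 and counting per gene by featureCounts 2.0.1, as the authors state, and their deposited raw counts of 8 samples were the input. The authors also deposited a normalized signal per cell type, made by ComBat-Seq batch correction and division by DESeq2 size factors. In 100% of its values whole counts were recovered within 0.05, and these served as an alternative. Left out were 16 broken lines of the counts, which hold 5 genes and no replication gene. The counting annotation is stated as Gencode, and strand is not given in the sources used here.

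Each cell type was fitted with edgeR 4.0.16 (filterByExpr, TMM, quasi-likelihood test, Benjamini-Hochberg adjustment over all genes tested), blocked on replicate number. The study's methods name 2 independent experiments and a batch correction, and that the replicate number marks the experiment and the batch was assumed here. Samples with the same number deviated together, with a correlation of 0.678 over 15814 genes in C2C12 cells and 0.82 over 17117 in primary myoblasts. All 41 genes were tested in every comparison. The cell types were compared by the interaction term of all 8 samples, and the controls by a fit of 4 samples without the block. SE is the fold change divided by the root of F. Pair ratios use log2 CPM (prior count 2).

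Gene lengths are the exon union of GENCODE M21, and promoters come from RefSeq (GRCm38.p6). The genes, the lists and the genes named were chosen with earlier results of these data known. The rule for named genes was all members by role, with values of every sample for members called after Septin9 siRNA, Septin9, and up to 4 called genes of each list by size of change. Values of other members, and Pdgfra, were added with their values in view. Alternatives were RLE or library size scaling, a filter of 10 counts per sample or none, the fit without the block, DESeq2 1.42.0 with the block or on the batch-corrected counts, all 8 samples in 1 fit, a 1.5-fold threshold, and each replicate left out. Depth was 20898611 to 27223414 counts per sample, and the precision is set by 2 replicates. In simulated data with 200 genes changed, 91% of 2-fold changes were called among 15596 genes in C2C12 cells (false share of calls 3.11%), and for primary myoblasts 83% were, among 16809 genes (false share 4.84%). Fitted changes of the replication genes after Septin9 siRNA were all smaller than 2-fold. The share called among changes of that size was not tested. R packages and Python 3.11.15 with pandas 2.3.3 and matplotlib 3.10.9 were used.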

Additional observations from a re-analysis of the deposited data

How the results depend on the processing

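In primary myoblasts the count of replication genes called after Septin9 siRNA was 2 in the main fit, 6 with DESeq2 on batch-corrected counts, and 0 with DESeq2 with the block, RLE size factors, library size alone, no replicate block or a 1.5-fold change as well. With each replicate left out it was 8 to 11, and the median was -0.284 to -0.220, against -0.24 with both and -0.274 with library size alone. In C2C12 cells 1 gene, Cdt1, was called with library size alone, beside 8.86% of all genes. For the difference between cell types the leave-one-out counts were 0 to 5. Between the controls 6 genes were called with DESeq2, beside 37.7% of all genes, and 6 with no filter, beside 26%. With 1 replicate left out the medians were -0.973 to 0.133. Between primary myoblast replicates DESeq2 called 0 and RLE size factors 2, and the median was 0.121 with library size alone. The median control level in primary myoblasts was 12.6 CPM per kilobase of the longest transcript. The causes were not tested. A lone sample left in a group was assumed to vary like the others.

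Without the replicate block 0 genes of all were called in both cell types (372 and 378 at an unadjusted p under 0.05), against 1068 and 854 with it, and DESeq2 with the block called 256 and 238. In C2C12 cells 111 were called in the fit of all 8 samples, and 98 and 181 without replicate 1 and 2. In primary myoblasts RLE called 295, library size alone 236, and 2020 were called without replicate 1. For the difference between cell types, 255 were called with no filter and 51 to 844 with a replicate left out. The calls in the controls fell to 512 without C2C12 control replicate 2, from 5901, and DESeq2 called 2487 and 2005 genes between replicates, against 5638 and 4187. In the controls the replicate block left Cdt1, Rfc3 and Rrm2 called. The 40 calls between C2C12 replicates were 40 in each of the 4 alternatives.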
